A study of Mus musculus with 531 samples.

Results

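The cells described here are epiblast cells of mouse embryos on either side of implantation, 22 cells of 5 embryos at E4.5 and 37 cells of 1 embryo at E5.5, 59 of the 264 embryo cells for which the authors deposited RNA counts. The embryos were of the strain C57Bl/6Babr, and the labels give no mutation and no treatment for any of them. The RNA of single cells was read with Smart-seq2, as the RNA arm of a method that separates the RNA and DNA of a cell so that the DNA can be treated with bisulfite. The DNA methylation of these cells is not analysed here. At E4.5 the outer trophectoderm had been removed by immunosurgery, at E5.5 the visceral endoderm and the extraembryonic ectoderm had been pulled off, and cells were then picked by hand. The labels name embryos 1 and 2 with the prefix P1, embryos 3, 4 and 5 with the prefix P2, and the E5.5 embryo, number 7, with a prefix of its own, so any difference that follows the prefix cannot be told apart from the stage. Embryos are counted here by their labels, and the methods of the study count fewer at E4.5 than the labels name, so that some labels may not be separate embryos and each n of 5 is a number of labels.

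Members were chosen by measured values. Of the cells with counts, 217 had at least 50000 reads and 2000 detected genes, 75 of 91 at E4.5 and 59 of 80 at E5.5. A cell of E4.5 was called epiblast where the mean of Fgf4, Tdgf1 and Slc7a3 exceeded the mean of Gata6, Pdgfra, Cubn and Dab2 by at least 1 on the scale log2(CPM + 1), where CPM is the count of a gene scaled by the reads of that cell, as usual in RNA sequencing. A cell of E5.5 was called epiblast where it had at least 4000 detected genes and a cell number that is not a multiple of 12. The rule took 4, 4, 5, 5 and 4 cells from E4.5 embryos 1 to 5. The lowest differences inside it were 1.22 and 1.56, both in cells of embryo 5, then 3.19 and 4.24, both in cells of embryo 3, and the highest outside it were 0 and -0.32. The median inside was 7.03. At E5.5 the least complex cell inside had 4451 detected genes, and the most complex cell left out by this threshold had 3914. The 8 cells left out for a number that is a multiple of 12 had up to 4976.

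The epiblast is the pluripotent tissue that forms the body of the embryo. Before implantation its cells are in the naive state, held by a network of transcription factors around Nanog, Esrrb and the Klf family and, in cultured cells, by LIF signalling. Around implantation the naive network is shut down while Pou5f1 is kept, new factors such as Otx2 and Pou3f1 appear, the cells form an epithelium around a lumen, and DNA methylation, which was low in the blastocyst, is laid down again by the enzymes Dnmt3a and Dnmt3b with the cofactor Dnmt3l. The states passed through are called formative and primed, and Fgf5 is its classical marker.

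The promoters of 4 genes on which the results turn are shown first. Khdc3 and Mylpf passed the test, lower at E5.5, in each of the 18 processing alternatives that were run, and Dnmt3b and Psmb8 were the genes called higher at E5.5 whichever E4.5 embryo was left out. Each run holds the 250 bases before and the 50 bases after the annotated start in RefSeq, build GRCm38.p6, on the plus strand, 5′ to 3′, with each CG dinucleotide, the site of DNA methylation, in capitals. The motif searched was CG, which reads the same on both strands. The Khdc3 promoter lies at chr9:73102148-73102447, that of Mylpf at chr7:127211358-127211657, that of Dnmt3b at chr2:153649199-153649498 and that of Psmb8 at chr17:34197945-34198244.
Khdc3: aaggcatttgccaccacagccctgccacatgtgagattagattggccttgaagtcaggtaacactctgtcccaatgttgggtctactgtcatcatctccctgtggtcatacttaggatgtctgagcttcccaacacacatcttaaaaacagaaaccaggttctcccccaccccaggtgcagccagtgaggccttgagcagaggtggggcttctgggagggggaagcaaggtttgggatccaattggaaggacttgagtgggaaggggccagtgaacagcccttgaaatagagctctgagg
Mylpf: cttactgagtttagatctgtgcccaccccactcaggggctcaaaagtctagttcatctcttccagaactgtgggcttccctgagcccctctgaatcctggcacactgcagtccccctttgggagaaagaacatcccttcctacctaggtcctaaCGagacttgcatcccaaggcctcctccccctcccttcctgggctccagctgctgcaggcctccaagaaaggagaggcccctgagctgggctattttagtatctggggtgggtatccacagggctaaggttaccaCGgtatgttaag
Dnmt3b: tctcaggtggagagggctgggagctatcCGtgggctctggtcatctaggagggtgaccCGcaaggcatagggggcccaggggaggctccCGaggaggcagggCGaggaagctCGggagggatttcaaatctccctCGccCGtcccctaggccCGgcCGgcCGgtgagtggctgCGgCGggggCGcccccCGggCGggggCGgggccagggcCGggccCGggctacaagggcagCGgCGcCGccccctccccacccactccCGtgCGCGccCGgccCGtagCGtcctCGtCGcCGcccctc
Psmb8: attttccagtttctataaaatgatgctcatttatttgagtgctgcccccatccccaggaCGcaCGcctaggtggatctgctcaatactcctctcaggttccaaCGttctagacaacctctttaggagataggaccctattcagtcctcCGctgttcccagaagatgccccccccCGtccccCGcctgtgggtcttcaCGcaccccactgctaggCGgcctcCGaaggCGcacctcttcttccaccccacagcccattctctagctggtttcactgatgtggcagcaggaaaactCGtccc
Among the 32851 RefSeq promoters of 300 bases in the table, 94.6% held at least 1 CG and the median was 7. The window of Khdc3 held 0, as did 5.43% of all promoters. The window of Mylpf held 2, and 23.3% of all promoters held that many or fewer. Dnmt3b held 30 and Psmb8 held 11, which 89.4% and 60.4% of promoters did not exceed. For Khdc3, Mylpf and Psmb8 the RefSeq start lies inside a GENCODE gene that begins farther upstream. Among the genes called lower with a window there, the number of CG ran from 0 in Khdc3 to 53 in Lifr. Among those called higher it ran from 11 to 30, so the 4 windows do not tie CG number to direction. These counts describe the letters of the reference and not the methylation of these cells.

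The epiblast markers Pou5f1, Tdgf1 and Utf1 were read in all 59 cells, and Fgf5 in 5 of 22 cells at E4.5 and 30 of 37 at E5.5. The cells of E4.5 held between 317396 and 1882966 reads on genes (median 799906) and those of E5.5 between 600404 and 2146594 (median 1271367). The median number of detected genes was 6855 at E4.5 and 5915 at E5.5, and 5084 and 4410 once each cell was thinned to 50000 reads. The median share of mitochondrial reads was 3.28% and 2.86%. The 25 genes of the endoderm marker list, 4 of them genes of the rule, summed to 3563, 2690, 3070, 1780.6 and 7488 CPM in the epiblast cells of E4.5 embryos 1 to 5 and to 855 CPM at E5.5, where 9 of the 25 were at 0. The 51 cells of E4.5 on the endoderm side of the rule had 16902 to 26039 CPM per embryo. So the E4.5 epiblast sums of embryo 5, and to a lesser degree the others, held reads of endoderm genes. The 12 markers of trophectoderm and extraembryonic ectoderm summed to between 23.4 and 47.7 CPM at E4.5 and 30.9 CPM at E5.5, and the 12 of primitive streak and mesoderm to between 45.9 and 63.3 and to 25.7 CPM. The 4 Y-linked genes checked had at least 22 reads in every cell of embryo 4. Under the label embryo 5, however, 6 of 14 endoderm cells had at least 25 such reads and 7 had none, while its 4 epiblast cells together held 1 read, so the cells under that label differed among themselves. In the E5.5 embryo 35 of 37 epiblast cells had no such read and 1 had 12. Counts are therefore given with and without embryo 5 and with and without the 4 E4.5 cells nearest the threshold.

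To ask which genes differ between the stages, counts were summed over the epiblast cells of each embryo and 12195 genes were tested with edgeR's quasi-likelihood test, 5 E4.5 embryos against 1 at E5.5, with the spread of the single E5.5 embryo taken to equal that at E4.5. Only 5 genes were higher at E5.5, 0.041% of those tested, and 42 were lower, 0.344%, at an adjusted p under 0.05 (Benjamini-Hochberg). At an unadjusted p under 0.05 the counts were 590 and 423, but lower genes outnumbered higher ones once any E4.5 embryo was left out (284 to 412 higher and 339 to 454 lower) or genes were held to 10 CPM (212 and 406). Read as bare positions, the E5.5 value lay above all 5 E4.5 embryos for 2705 genes, 22.2% of those tested, and below all 5 for 1267, 10.4%. Of these tested genes, 430 had no read at E4.5 and 577 none at E5.5, and among the 11188 read at both stages the shares were 20.3% above and 10.98% below. The E5.5 sum was far deeper than those of E4.5. The median log2 fold change over all tested genes was -0.06. Below, levels are CPM of the sum per embryo, and the signed value that opens a parenthesis after them is the fitted log2 fold change from E4.5 to E5.5, with its standard error (SE). In a sum over cells, fewer cells with a transcript and less of it per cell cannot be told apart, so the number of cells with a read is given beside the main genes. An exact permutation test over these 6 embryos cannot give a p below 1 in 6, so single values have no test of their own.

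**Figure D1:**
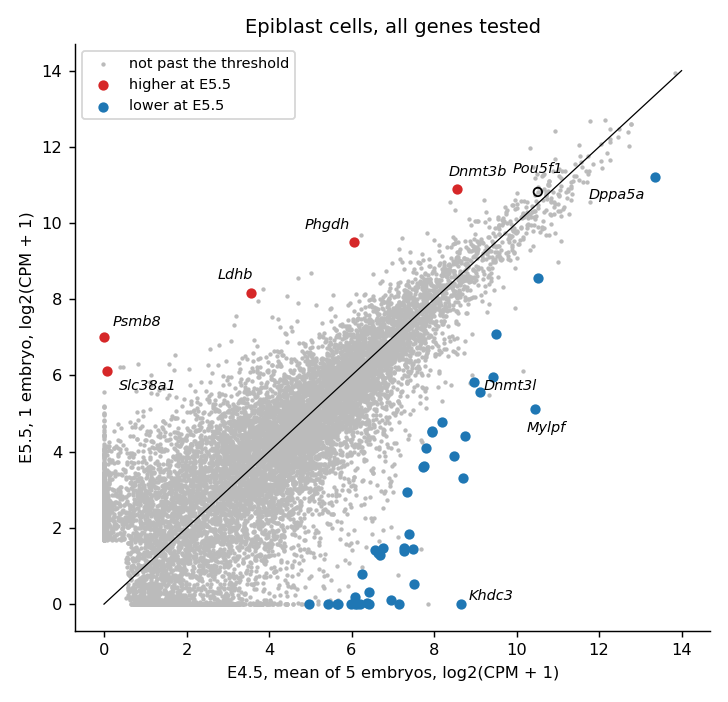
Mean level of each tested gene in the 5 E4.5 embryos (horizontal axis) against its level in the E5.5 embryo (vertical axis), both as log2(CPM + 1), with the 47 called genes in colour. The 42 genes called lower reach the bottom of the plot, where 11 of them had no read at E5.5, and the 5 called higher lie on the opposite side of the diagonal.

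All 47 genes kept their direction in the 18 alternatives. Each alternative used the same E5.5 embryo, and the E5.5 value of all 47 lay outside the E4.5 range. Leaving out or choosing E4.5 embryos could thus hardly turn a direction. With each E4.5 embryo left out in turn, 23 of the 47 stayed called every time, 2 of them higher. Without embryo 5, 16 genes were higher and 58 lower, and these hold all 47. Without the 4 cells nearest the threshold, a rule added after the data were seen, 2 were higher and 23 lower, all among the 47. The median shift in log2 fold change was 0.11 and the widest was 2.45, in Slc38a1. The split between directions differed between settings. With the P1 embryos alone 26 genes were higher and 66 lower. With the P2 embryos alone 0 were higher and 3 lower by edgeR, with 250 and 371 at an unadjusted p under 0.05. Cells thinned to 50000 reads gave 31 and 89. For limma, CPM was averaged over the cells of each embryo and then taken as log2(mean CPM + 1). This gave 590 and 99, with the median of all genes shifted to 0.32. There the test and the scale change together with the weight of a cell. On simulated counts of this design, drawn with edgeR's own dispersions, DESeq2 called many unchanged genes, mostly as lower. There edgeR also made more false calls than its threshold allows. A DESeq2 call below is therefore given as a value and not as support. Single edgeR calls near the threshold are less sure than their adjusted p.

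**Figure D2:**
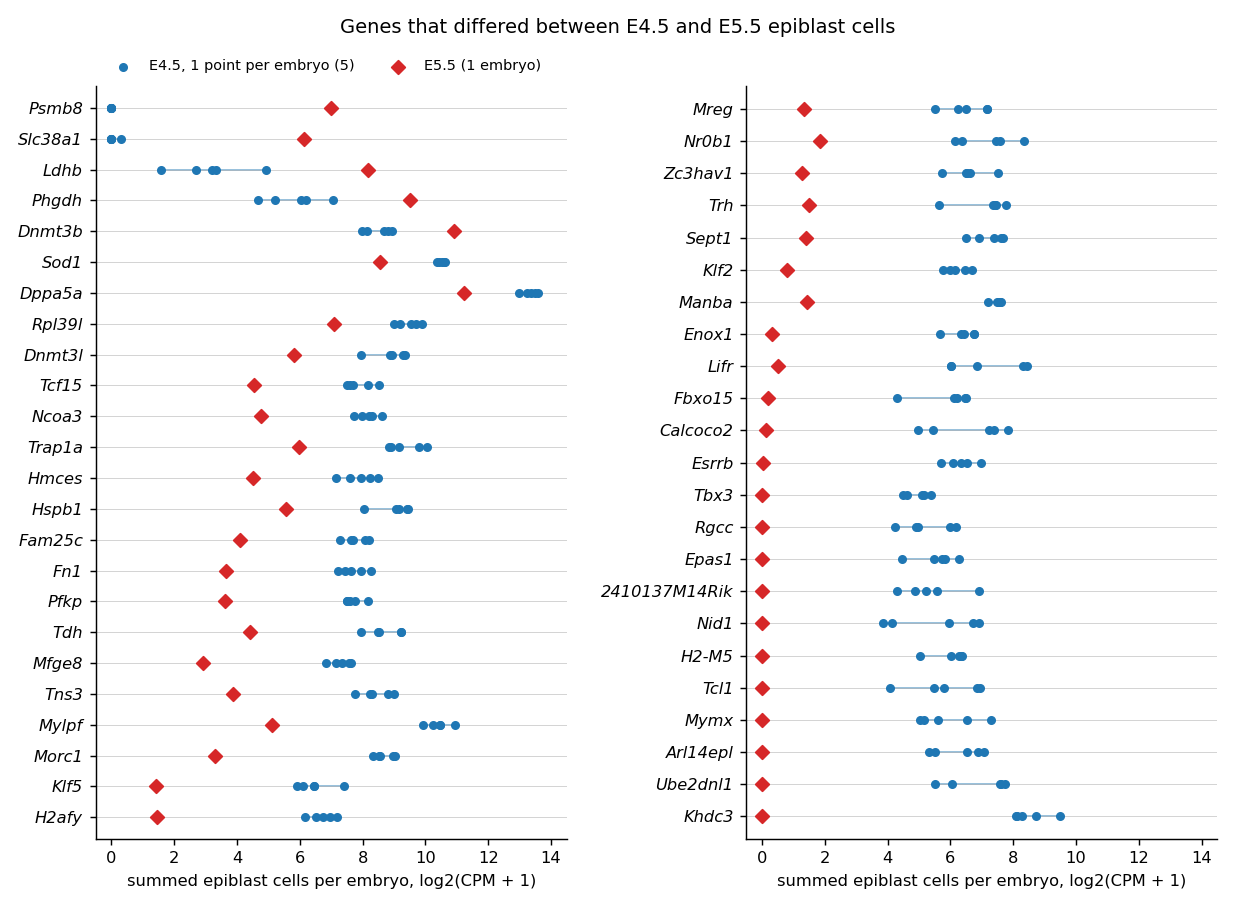
Levels of the 47 called genes as log2(CPM + 1), with 1 blue point for each of the 5 E4.5 embryos and a red diamond for the E5.5 embryo. In each row the diamond lies outside the range of the blue points, to the right for the 5 genes called higher and to the left for the 42 called lower.

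The naive pluripotency network was lower at E5.5. Of its 16 listed genes, 7 fell and 0 rose, beside 0.344% and 0.041% of all genes. In position 12 (75%) were below all 5 E4.5 embryos, beside 10.4% of all genes, and 0 above, beside 22.2%. Of the 12 genes read at both stages 10 (83.3%) lay below, beside 10.98% of all such genes. The median log2 fold change was -5.83, or -5.16 with genes lacking reads set at their bound, against -0.06 over all tested genes. The list was drawn up with results of these data known, so its direction is a description. Esrrb, an orphan nuclear receptor of the naive network, was at 124, 66.8, 78.9, 51.3 and 90.4 CPM in E4.5 embryos 1 to 5 and at 0.0207 CPM, a single read, in the E5.5 embryo. That is a 3983-fold difference from the mean of the E4.5 embryos, with a counting interval of 715 to 157306 (adjusted p = 0.00287), and the groups did not overlap. Esrrb was read in 20 of 22 cells at E4.5 and in 1 of 37 at E5.5. Klf2, a zinc finger factor of the same network, was at 103, 62.9, 88.1, 53.4 and 70.02 CPM at E4.5 and 0.723 CPM at E5.5, a log2 fold change of -6.68 (SE 1.21, adjusted p = 0.0203). In embryo 5 only 1 of 4 cells held a read of Klf2. Its E5.5 level came mainly from 1 of the 2 cells with a read, which held 82.9% of the summed level. Its relative Klf5 was at 87.4, 85.96, 169, 58.8 and 68.002 CPM before implantation and 1.65 CPM after (-5.82, SE 1.13, adjusted p = 0.0327). The highest E4.5 embryo for Klf5 and for Nr0b1 was embryo 3.

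Nr0b1, an X-linked nuclear receptor without a usual DNA binding domain, stood at 191, 70.1, 326, 173 and 81.9 CPM in the E4.5 embryos and at 2.56 CPM at E5.5 (log2 fold change -6.03, SE 1.12, adjusted p = 0.0233). The T-box factor Tbx3 ranged over 21.6 to 40.4 CPM at E4.5 and had no read at E5.5, at least 493-fold lower when 3 reads are taken as the floor of the E5.5 sum (adjusted p = 0.0379). Tcl1, a coactivator of the kinase Akt, fell at least 1121-fold, from 54.6, 113, 121, 43.3 and 15.9 CPM to no read in any of 37 cells (adjusted p = 0.0126). Tdh, the mitochondrial threonine dehydrogenase, fell from 596, 356, 365, 591 and 244 CPM to 20.2 CPM (-4.41, SE 0.69, adjusted p = 0.00907). All 4 genes were below the whole E4.5 range. Klf5, Tbx3 and Tcl1 were also read in the E4.5 endoderm cells, at 214, 70.8 and 93.7 CPM, against means of 93.9, 30.6 and 69.5 CPM in the epiblast cells. Without the 4 cells nearest the threshold, Esrrb, Tcl1 and Tdh stayed called. The other 4 did not, with adjusted p = 0.670 for Klf2, 0.140 for Klf5, 0.0884 for Nr0b1 and 0.553 for Tbx3 in edgeR. Their calls also depended on single embryos. The adjusted p passed 0.05 for Klf2 without embryo 1, 2 or 3 (0.0671, 0.0535 and 0.0835), Klf5 without embryo 1, 2 or 3 (0.0789, 0.0762 and 0.128), Nr0b1 without embryo 1 or 3 (0.0671 and 0.0662) and Tbx3 without embryo 1, 2 or 3 (0.0869, 0.0794 and 0.102).

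Nanog, the homeobox factor at the head of the network, was at 82.2, 82.6, 108, 94.4 and 169 CPM at E4.5 and 4.79 CPM at E5.5, below all E4.5 embryos, and missed the threshold (-4.48, SE 0.94, adjusted p = 0.0564). It passed in 7 of the 18 alternatives, among them without embryo 5 (edgeR, adjusted p = 0.0471) and with DESeq2, and its adjusted p ranged up to 0.670. Tfcp2l1, a factor downstream of LIF, ran from 22.2 to 353 CPM at E4.5 to 2.42 CPM at E5.5 (-5.83, adjusted p = 0.134), with the 2 extremes of E4.5 in embryos 5 and 4. Not every naive gene was near 0 after implantation. Zfp42 (Rex1), a widely used naive marker, was at 38.5, 95.6, 72.1, 129 and 173 CPM and then at 53.5 CPM, inside the E4.5 range, and Klf4 was at 11.05 to 54.2 CPM and then 7.02 CPM. Dppa3, which protects the maternal genome from demethylation in the zygote, was at 81.7 to 392 CPM before and 53.3 CPM after.

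The 7 naive genes called lower were read in few cells of the E5.5 embryo. They were called for low sums over these same cells, so low counts per cell follow from that choice. Naive genes kept at E5.5, such as Zfp42, are not among them. Of the 7 called genes, an E4.5 cell held reads for a median of 6.5, with a range of 3 to 7, and an E5.5 cell for a median of 0, with a range of 0 to 3. No read of any of the 7 was found in 19 of 37 E5.5 cells and in 0 of 22 E4.5 cells. After thinning to 50000 reads the medians were 6 and 0. The E5.5 cells were the deeper ones. Esrrb and Fgf5 were read together in 4 of 22 cells at E4.5, and the 1 E5.5 cell with a read of Esrrb had none of Fgf5.

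Lifr, the receptor subunit that binds LIF, was the called gene of the LIF, JAK and BMP list. It stood at 113, 63.4, 64.4, 348 and 314 CPM at E4.5, where embryos 4 and 5 were the highest, and at 0.434 CPM at E5.5, where 1 cell of 37 held all 21 reads (-8.67, SE 1.48, adjusted p = 0.0159). It too was read in E4.5 endoderm cells, at 181 CPM, and without the 4 cells nearest the threshold its adjusted p was 0.0756. Of the 14 genes of this list 0 rose and 1 fell, beside 0.041% and 0.344% of all genes. In position 4 (28.6%) were below and 1 (7.14%) above all E4.5 embryos, beside 10.4% and 22.2% of all genes. Bmp4, a growth factor, had 13.5, 112, 37.5, 138 and 96.1 CPM at E4.5 and 3.78 CPM at E5.5 (-4.39, adjusted p = 0.367), and Id1, a target of BMP signals, had 0 to 44.1 CPM and then 54.8 CPM.

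A second group of falls concerned genes of the early embryo and oocyte. In the list of Dppa and early embryo genes 7 of 12 were testable, of which 3 fell (Khdc3, Dppa5a and Tcl1), beside 0.344% of all genes, and 0 rose. In position 5 (71.4%) lay below the E4.5 range, beside 10.4%, with a median log2 fold change of -2.13. Khdc3 and Tcl1 had no read at E5.5 and so could not lie above. Of the 5 genes read at both stages 3 (60%) lay below, beside 10.98% of all such genes. Khdc3 (Filia), a component of the subcortical maternal complex of the oocyte with roles in genome stability, had the smallest adjusted p of all genes. It was at 269, 423, 307, 719 and 279.6 CPM in the E4.5 embryos, highest in embryo 4, and had no read in any of 37 cells at E5.5, at least 6449-fold lower (adjusted p = 4.69e-05). At E4.5 it was read in 21 of 22 cells. Its exons overlap those of the annotated gene Gm20509, and whether reads were counted by strand is not stated. Ooep, another member of the complex, was at 291, 150.3, 189.8, 281 and 195 CPM and then 34.4 CPM, below the E4.5 range but not past the threshold (-2.69, adjusted p = 0.126). Dppa5a, an RNA-binding protein of pluripotent cells, was at 10558, 12401, 8151, 11416 and 9578 CPM at E4.5 and 2387 CPM at E5.5, where every cell still held reads (-2.13, SE 0.28, adjusted p = 0.00281). Fbxo15, an F-box gene long used as a reporter of embryonic stem cells, fell from a range of 18.7 to 88.4 CPM to 0.145 CPM (-8.76, SE 1.59, adjusted p = 0.0203), and the call was lost without embryo 2 or 3 (adjusted p = 0.0586 and 0.0777) and, with 0.104, without the 4 cells nearest the threshold. Dppa2 and Dppa4, by contrast, were inside the E4.5 range, at 111 and 125 CPM at E5.5 against 86.6 to 225 and 91.2 to 254 CPM. Dppa5a has near-identical copies in the genome, so its level is uncertain.

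Many of the genes that fell carry no pluripotency name. Mylpf, a regulatory light chain of fast skeletal muscle myosin, was at 1210.1, 979, 1404, 1973 and 1398 CPM at E4.5 and 33.8 CPM at E5.5 (-5.37, SE 0.53, adjusted p = 0.000251), with every E4.5 embryo at least 979 CPM. It was read in 22 of 22 cells at E4.5, in 25 of 37 at E5.5 and at 66.04 CPM in the endoderm cells. Its neighbour Sept1, a septin, fell as well, from 194, 201, 164, 89.8 and 120.1 CPM to 1.63 CPM (-6.55, SE 0.97, adjusted p = 0.00697). Mylpf lies at chr7:127208890-127214298 and Sept1 at chr7:127214447-127233130, 148 bases apart, and Sept1 also overlaps exons of Zfp553. A second pair of called neighbours was 2410137M14Rik at chr17:36977701-36981237 and H2-M5, a class Ib histocompatibility gene, at chr17:36984061-36989537, with 2823 bases between them. Both had no read at E5.5, against ranges of 18.8 to 119 and 31.6 to 81.2 CPM at E4.5, at least 803-fold and 1070.5-fold lower (adjusted p = 0.0203 and 0.00408). Mymx, whose micropeptide drives the fusion of muscle cells, fell at least 1167-fold from 34.9, 47.5, 90.8, 157 and 31.4 CPM (adjusted p = 0.00907). Morc1, an ATPase that represses transposable elements in the male germline, fell from 322, 503, 527, 373 and 363 CPM to 8.86 CPM (-5.56, SE 0.65, adjusted p = 0.00130) and was called in every alternative that left out an embryo. Of these genes the call was lost for 2410137M14Rik without embryo 1, 2 or 3 (0.0514, 0.0664 and 0.0550), and without the 4 cells nearest the threshold the adjusted p was 0.0884 for 2410137M14Rik and 0.214 for Mymx.

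Of the 10 genes that the naming rule took for their falls, all had no read at E5.5, and so their folds are lower bounds. Beside Khdc3, Tcl1, Mymx, H2-M5 and 2410137M14Rik these were the X-linked Ube2dnl1 (at least 2269-fold, from a range of 44.2 to 211 CPM, adjusted p = 0.00265), Arl14epl (at least 1373-fold, from a range of 38.5 to 134 CPM, adjusted p = 0.00351), Nid1, a glycoprotein of basement membranes (at least 1016-fold, from a range of 13.6 to 119.6 CPM, adjusted p = 0.0218), Epas1, the hypoxia-inducible factor HIF-2 alpha (at least 799-fold, from a range of 20.8 to 76.3 CPM, adjusted p = 0.0126), and Rgcc, a cell cycle regulator (at least 682-fold, from a range of 17.8 to 71.6 CPM, adjusted p = 0.0203). Ube2dnl1 has a close paralog, so its reads may be shared. The call was lost for Nid1 without embryo 2 (0.0686) and Rgcc without embryo 1 or 2 (0.0646 and 0.0664). Without the 4 cells nearest the threshold Nid1 had an adjusted p of 0.192, and the other 4 stayed called.

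The remaining genes called lower were named after their values were seen. Calcoco2, a receptor of selective autophagy, went from 228, 30.3, 165, 149 and 42.6 CPM to 4 reads in 3 cells (-10.36, SE 1.70, adjusted p = 0.0126). Enox1 fell from a range of 49.5 to 106 CPM to 0.248 CPM (-8.36, adjusted p = 0.00819), and the lysosomal enzyme gene Manba fell from 145, 185, 193, 178 and 188 CPM to 1.71 CPM (-6.69, SE 0.84, adjusted p = 0.00255). Trh, the precursor of thyrotropin-releasing hormone, fell from 219, 169, 163, 174 and 48.7 CPM, lowest in embryo 5, to 1.80 CPM (-6.42, adjusted p = 0.0157). The antiviral zinc finger gene Zc3hav1, the histone variant macroH2A1 gene H2afy and the melanosome gene Mreg had log2 fold changes of -6.16, -5.92 and -6.00 (adjusted p = 0.0218, 0.0159 and 0.0295), and H2afy and Mreg were higher in E4.5 endoderm cells than in epiblast. The focal adhesion gene Tns3 and Mfge8, a secreted glycoprotein, had log2 fold changes of -4.71 and -4.60 with adjusted p = 0.00716 and 0.0172. Among genes that were still read in most E5.5 cells, the small heat shock protein gene Hspb1 was at 263 to 702 CPM and then 46.1 CPM (-3.57, adjusted p = 0.0172), and the superoxide dismutase gene Sod1 was at 1568, 1489.7, 1367, 1308 and 1551 CPM and then 378 CPM (-1.94, SE 0.35, adjusted p = 0.0200), the smallest of the called falls. Fam25c, Hmces, the X-linked Trap1a, the nuclear receptor coactivator Ncoa3, the helix-loop-helix factor Tcf15 and Rpl39l lay between -3.79 and -2.41 (adjusted p from 0.0172 to 0.0463). Rpl39l is a close copy of another ribosomal protein gene, so its reads may be shared.

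Of these less known genes, the calls that depended on an embryo were Trh without embryo 2 (0.0509), Zc3hav1 without embryo 2 or 3 (0.0586 and 0.0702), Mreg without embryo 2 or 3 (0.0686 and 0.0777), Mfge8 without embryo 2 or 3 (0.0535 and 0.0644), Hspb1 without embryo 2 (0.0586), Sod1 without embryo 1 or 2 (0.0514 and 0.0596), Fam25c without embryo 2 or 3 (0.0586 and 0.0792), Hmces without embryo 1, 2, 3 or 4 (0.102, 0.0586, 0.116 and 0.0547), Ncoa3 without embryo 1 or 2 (0.0514 and 0.0586), Tcf15 without embryo 1, 2 or 3 (0.0869, 0.106 and 0.0813) and Rpl39l without embryo 1, 2 or 3 (0.0932, 0.0586 and 0.107), with the adjusted p of edgeR in parentheses. Calcoco2, Enox1, Manba, H2afy, Tns3 and Trap1a stayed called with each embryo left out. Without the 4 cells nearest the threshold the adjusted p was between 0.0504 (Trap1a) and 0.203 (Trh) for Trap1a, Hmces, Ncoa3, Zc3hav1, Rpl39l, Mreg, H2afy and Trh, and the other 9 genes of this group stayed called.

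Only 5 genes rose. Dnmt3b, a de novo DNA methyltransferase, was at 488, 252, 282, 448 and 409 CPM in E4.5 embryos 1 to 5, 376 ± 104 (mean ± SD, n = 5), and at 1905 CPM at E5.5 (2.34, SE 0.36, adjusted p = 0.00819). It was read in all 59 cells, and no cell held more than 6.003% of the summed E5.5 level. The gene lies at chr2:153649450-153687730. Psmb8, a catalytic subunit of the immunoproteasome at chr17:34197721-34201454, had no read in any of the 22 E4.5 epiblast cells or the 51 endoderm cells and 127 CPM at E5.5, at least 769-fold higher (adjusted p = 0.00907). It was read in 26 of 37 cells, and after thinning in 56.8% of them. Both genes were called whichever embryo was left out and without the 4 cells nearest the threshold.

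The other genes that rose encode parts of metabolism. Phgdh, the first enzyme of serine synthesis, was at 64.02, 72.5, 24.4, 35.6 and 132 CPM at E4.5 and 719 CPM at E5.5 (3.45, SE 0.59, adjusted p = 0.0159), in 19 of 22 and 37 of 37 cells. Ldhb, the lactate dehydrogenase subunit typical of tissues that consume lactate, was at 29.1, 9.12, 5.42, 8.23 and 2.02 CPM and then 288 CPM (4.77, SE 0.88, adjusted p = 0.0221), in 7 of 22 and 36 of 37 cells. Slc38a1, a transporter of glutamine and other neutral amino acids, had 1 read at E4.5, in embryo 3, and 68.7 CPM at E5.5, a ratio of 1245-fold over the pooled E4.5 reads with a counting interval of 223 to 49158, or 1521-fold over the mean of the 5 embryos (adjusted p = 0.0286), and was read in 33 of 37 E5.5 cells. The genes lie at chr3:98313170-98339990, chr6:142490249-142507957 and chr15:96571418-96642913. In each of them the E5.5 value exceeded the whole E4.5 range, but the calls were less stable. They were lost for Phgdh without embryo 1 or 2 (0.0514 and 0.0586), Ldhb without embryo 2 or 3 (0.0762 and 0.0792) and Slc38a1 without embryo 1, 2 or 3 (0.0566, 0.0596 and 0.122). Without the 4 cells nearest the threshold the adjusted p was 0.104 for Phgdh, 0.257 for Ldhb and 0.152 for Slc38a1. In the endoderm cells of E4.5 Dnmt3b stood at 423 CPM, above its mean in the epiblast cells, Phgdh at 284 CPM, Ldhb at 14.48 and Slc38a1 at 7.20.

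Pou5f1 and Utf1 stayed within the range of E4.5. Pou5f1 (Oct4), the POU factor required for pluripotency, was at 1964, 1567, 1425, 1067 and 1293 CPM at E4.5 and 1803 CPM at E5.5, and Utf1, a chromatin protein of pluripotent cells, at 463, 334, 393, 374 and 231 CPM and then 338 CPM. Of the 12 genes of general pluripotency 0 rose and 0 fell, 6 (50%) lay below all E4.5 embryos, beside 10.4% of all genes, 6 inside the range and 0 above, beside 22.2%, with a median log2 fold change of -0.66. In this list 4 were lower at an unadjusted p under 0.05, and DESeq2 called 3 lower. Sox2, the partner of Pou5f1, was at 128, 92.2, 99.2, 173 and 64.2 CPM and then 12.5 CPM, below the E4.5 range, with an adjusted p of 0.229 (-3.15, SE 0.87) in edgeR and 0.0320 in limma. Sall4 was at 139 CPM at E5.5 against 178 to 432 CPM, and Lin28a, which blocks the maturation of let-7 microRNAs, at 150.3 against 86.4 to 269 CPM. Among the genes of the selection rule, given as levels only, Tdgf1 was at 714 to 1355 CPM at E4.5 and 704 CPM at E5.5, Fgf4 at 70.1 to 154 and 45.5, and Slc7a3 at 356 to 959 and 339.7. Gata6, Pdgfra and Cubn had no read in the E5.5 epiblast cells, and Dab2 had 3.82 CPM. In embryo 5 these 4 were at 24.7, 21.1, 1095 and 311 CPM.

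The formative and primed list was mixed. Of its 19 testable genes of 21, 1 rose (Dnmt3b) and 0 fell, beside 0.041% and 0.344% of all genes. In position 7 lay above (36.8%, beside 22.2% of all genes), 4 below (21.1%, beside 10.4%) and 8 inside the E4.5 range. The median log2 fold change was 0.75, but 0.13 against the P1 embryos, 1.17 against the P2 embryos and 0.46 without embryo 4. Fgf5 was at 78.1, 45.6, 8.59, 0 and 4.71 CPM in E4.5 embryos 1 to 5 and 47.04 CPM at E5.5, inside the range, although the number of cells with a read went from 5 of 22 to 30 of 37. The 2 embryos labelled P1 had the highest E4.5 values. Otx2, a homeobox factor that directs Pou5f1 to new enhancers, was at 129, 100.4, 74.6, 47.1 and 62.8 CPM and then 139 CPM, and Pou3f1 (Oct6) at 27.6, 39.9, 1.58, 4.40 and 8.98 CPM and then 68.3 CPM. The kinase gene Pim2 was at 81.4 to 643 CPM and then 1304 CPM, Lin28b at 0 to 6.72 and then 42.5, and Sall2 at 0 to 4.74 and then 27.2. All 5 lay above the E4.5 range without passing the test.

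In the list of DNA methylation and demethylation, 13 of 14 genes were testable. Dnmt3b rose and Dnmt3l fell, where 0.041% and 0.344% of all genes did. In position 8 genes stayed inside the E4.5 range, 1 (7.69%) lay above and 4 (30.8%) below, beside 22.2% and 10.4% of all genes. Dnmt3l, the cofactor without catalytic activity, was at 628, 491, 469, 248 and 649.7 CPM at E4.5 and 55.4 CPM at E5.5 (-3.16, SE 0.61, adjusted p = 0.0321). Dnmt3b and the cofactor Dnmt3l thus lay on opposite sides of their E4.5 ranges in these samples, and the difference between them was not tested. Dnmt3a, the other de novo enzyme, was at 804, 398, 230.0, 219.6 and 273 CPM and then 728 CPM, where embryo 1 alone was above the E5.5 level. Dnmt1, the maintenance enzyme, was at 64.5, 47.1, 60.6, 189.5 and 53.4 and then 56.1 CPM, and its recruiter Uhrf1 at 199, 349, 334, 418 and 226 and then 209.8 CPM, both inside the E4.5 range. The exons of Dnmt3l overlap those of Aire. The call was lost for Dnmt3l without embryo 1, 2 or 3 (0.0853, 0.0883 and 0.0827), and without the 4 cells nearest the threshold its adjusted p was 0.0511.

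The Tet enzymes, which oxidise methylated cytosine, did not pass the test as set out above. Tet1 passed in limma (adjusted p = 0.0111). Tet2 passed without embryo 1 (edgeR, adjusted p = 0.0373), with no filter on low counts (0.0477) and in thinned cells (0.01805). Tet1 was at 334, 279.5, 350.4, 433 and 421 CPM at E4.5 and 97.4 CPM at E5.5, below every E4.5 embryo (-1.90, SE 0.50, adjusted p = 0.182). Tet2 was at 13.01, 60.03, 74.8, 87.3 and 62.6 CPM and then 0.392 CPM (-7.21, SE 1.59, adjusted p = 0.0748), and was read in 19 of 22 cells at E4.5 and in 1 of 37 at E5.5. Tet3 was at 0 to 15.1 CPM and then 9.004 CPM. The difference between the responses of the 3 enzymes was not tested.

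**Figure D3:**
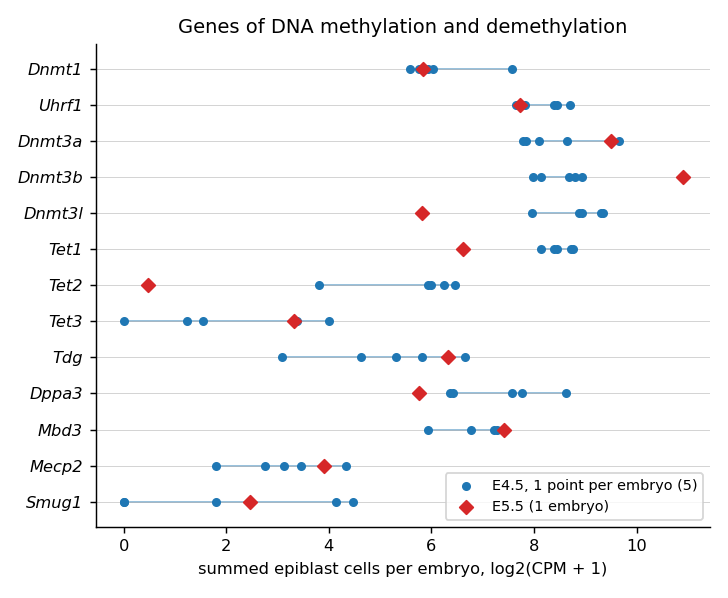
Levels of the 13 testable genes of DNA methylation and demethylation as log2(CPM + 1), with a point for each of the 5 E4.5 embryos and a diamond for the E5.5 embryo. Dnmt3b lies above its E4.5 points, and Dnmt3l, Tet1, Tet2 and Dppa3 lie below theirs.

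No gene of the FGF, Nodal or Wnt lists passed the edgeR test as set out above. Genes that chose the E4.5 cells are left out of the counts of every list. In the FGF and ERK list, without Fgf4, 0 of 16 genes were called, and 3 lay above and 5 below the E4.5 range (18.8% and 31.3%, beside 22.2% and 10.4% of all genes). At an unadjusted p under 0.05, 1 was higher and 3 lower. DESeq2 called 3 lower and 0 higher, and limma 1 higher and 0 lower. Fgf8, a ligand of the gastrulating embryo, was read only in embryo 3 at E4.5, at 0.678 CPM, and had 12.8 CPM at E5.5. The feedback inhibitor Spry2 was at 84.3, 204, 140.1, 156 and 443 CPM and then 18.8 CPM (-3.45, adjusted p = 0.188), and the immediate early gene Egr1 was at 33.8, 83.6, 198, 8.62 and 175 CPM and then 1.30 CPM (-6.25, adjusted p = 0.223). Without embryo 4 Egr1 passed (edgeR, adjusted p = 0.0326). In the Nodal list, without Tdgf1, 15 genes were testable and 0 called, with 3 above and 2 below, 0 at an unadjusted p under 0.05 and 0 called by DESeq2. Nodal itself was at 1.56, 40.3, 18.98, 6.70 and 3.37 CPM and then 19.4 CPM, and its antagonist Lefty2 at 0, 19.2, 30.5, 197 and 444 CPM and then 15.5 CPM, so that the E4.5 embryos alone spanned the whole scale of both. In the Wnt list 14 of 18 were testable and 0 called, 2 above and 5 below, with 2 lower at an unadjusted p under 0.05 and 2 lower by DESeq2. Notum, a secreted enzyme that inactivates Wnt proteins, was at 11.5, 14.9, 28.02, 8.42 and 72.5 CPM and had no read at E5.5 (adjusted p = 0.126).

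In the list of epithelium, adhesion and lumen genes, 22 of 23 were testable. Of these 0 rose and 1 fell, beside 0.041% and 0.344% of all genes, with 6 (27.3%) above and 5 (22.7%) below, beside 22.2% and 10.4%. The matrix protein gene Fn1 (fibronectin) fell from 147, 198, 247, 304 and 172 CPM to 11.4 CPM (-4.23, SE 0.74, adjusted p = 0.0172), a call lost without embryo 2 or 3 (0.0535 and 0.0637) and, with an adjusted p of 0.109, without the 4 cells nearest the threshold. Cdh1, the epithelial cadherin, was at 53.8 to 115 CPM at E4.5 and 156 CPM at E5.5, and the tight junction gene Cldn6 at 30.5 to 118 and 276 CPM. The keratin gene Krt18 was at 31.2, 0.480, 0.452, 0 and 5.39 CPM and then 119 CPM. These 3 were above the E4.5 range and did not pass.

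Many genes of glucose transport and glycolysis lay higher at E5.5. Of 21 genes, 13 (61.9%) lay above the E4.5 range, beside 22.2% of all genes, 1 below and 7 inside, and the median log2 fold change was 0.74. By the test 1 rose (Ldhb) and 1 fell (Pfkp), beside 0.041% and 0.344% of all genes. Pfkp, one of the 3 phosphofructokinase genes, fell from 218, 193, 178, 181 and 288 CPM to 11.2 CPM (-4.24, SE 0.70, adjusted p = 0.0131) and was called whichever embryo was left out. Eno1, an enolase with many processed copies in the genome, was at 1726, 1753, 769.6, 991 and 1192 CPM and then 4002 CPM (1.64, adjusted p = 0.0641), Ldha at 2615, 2844, 1476, 1052 and 1761 and then 5450.2 CPM (1.48, adjusted p = 0.149), and Aldoa at 1321 to 2937 and then 3300.2 CPM. Tpi1 and the lactate exporter Slc16a3 had log2 fold changes of 2.18 and 1.83 with adjusted p = 0.345 and 0.195. None of these 5 passed the edgeR test as set out above. Eno1 passed without embryo 5, with no filter on low counts and with the P1 embryos (adjusted p = 0.0497, 0.0270 and 0.0483), and Tpi1 with the P1 embryos (0.0355). In cells thinned to 50000 reads Eno1, Ldha, Tpi1 and Slc16a3 did (adjusted p = 0.00109, 0.00241, 0.00829 and 0.0177), and the list then held 5 genes called higher, against 3 with the P1 embryos, 2 without embryo 5 and 0 without embryo 2 or without embryo 3. Among 17 testable genes of mitochondrial respiration 0 were called by edgeR or DESeq2, 2 (11.8%) lay above and 4 (23.5%) below, beside 22.2% and 10.4% of all genes, and 0 had an unadjusted p under 0.05.

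In the list of antigen presentation and the immunoproteasome, of the 11 testable genes of 12, 8 were above the E4.5 range and 0 below, beside 22.2% and 10.4% of all genes. By the test 1 of them, Psmb8, rose, beside 0.041% of all genes. Psmb8, Tap1 and Tap2 had no read at E4.5 and so could only lie above, and of the 8 genes read at both stages 5 lay above, beside 20.3% of all such genes. The median log2 fold change over the 11 was 3.50, and 1.51 over the 9 genes that averaged 10 CPM at a stage. Psme2, a subunit of the proteasome activator PA28, was at 52.6, 12.01, 12.9, 10.3 and 69.6 CPM and then 413 CPM (3.72, SE 0.79, adjusted p = 0.0585), and passed without embryo 5 (edgeR, adjusted p = 0.00629). Psmb10, a further immunoproteasome subunit, was at 214, 217, 130.4, 103 and 191 and then 508 CPM (1.57, adjusted p = 0.320). The peptide transporter genes Tap1 and Tap2 had no read in any E4.5 epiblast cell and 3.72 and 4.67 CPM at E5.5. The class I genes H2-K1 and H2-D1, whose paralogs are near-identical, were at 0 to 8.81 and 0 to 13.5 CPM at E4.5 and at 69.2 and 55.8 CPM at E5.5.

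Other lists held few calls. Among 16 solute carriers and amino acid enzymes, without Slc7a3, 2 rose (Slc38a1 and Phgdh) and 1 fell (Tdh), beside 0.041% and 0.344% of all genes, with 3 (18.8%) above and 3 below, beside 22.2% and 10.4%. Among 14 genes of apoptosis and p53 0 were called, and 8 (57.1%) lay above and 1 (7.14%) below, beside 22.2% and 10.4% of all genes. The median log2 fold change of 1.34 rested on genes of low level. It was 0.059 over the 9 genes that averaged 10 CPM at a stage and 0.013 over the 7 testable in thinned cells. At an unadjusted p under 0.05, 3 were higher, while DESeq2 called 0 and limma 1 higher. The effector Bax was at 231 to 366 CPM and then 686 CPM (1.31, adjusted p = 0.332), and Pmaip1 (Noxa) at 5.42 to 39.1 and then 139. Of 17 testable germline genes of 20, 0 were called, 8 (47.1%) lay above and 3 (17.6%) below, beside 22.2% and 10.4% of all genes, with 4 higher and 1 lower at an unadjusted p under 0.05, 0 called by DESeq2, 4 higher by limma and 1 higher with the P1 embryos. Hormad1 and Sycp3, both of the meiotic chromosome axis, were at 240.0 and 88.1 CPM at E5.5 against 6.24 to 219.8 and 0 to 69.1 CPM, and Mael, Sycp2 and Taf7l, with no read at E4.5 and so able to lie only above, were at 4.502, 11.01 and 6.32 CPM. Of the 12 germline genes read at both stages 5 lay above and 3 below, and the median log2 fold change of the list was -0.33, with a sign that turned in several settings (2.28 without embryo 4, 0.77 without embryo 2). Among 19 genes of Polycomb and H3K9 methylation 0 were called, 2 (10.5%) lay above and 8 (42.1%) below, beside 22.2% and 10.4% of all genes, with a median of -0.47, 6 lower at an unadjusted p under 0.05 and 2 lower by DESeq2. Zfp57, which protects imprints, was at 126, 145, 118, 135 and 76.5 CPM and then 7.64 CPM (-3.97, adjusted p = 0.0619), and the Polycomb cofactor Jarid2 at 228, 454, 460.5, 508 and 464 and then 95.8 CPM (-2.14, adjusted p = 0.157). Suz12 and Ezh2 were at 47.02 and 98.5 CPM against 113 to 227 and 102 to 262 CPM at E4.5.

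Among the 18 cell cycle genes 0 were called, 3 (16.7%) lay above and 4 (22.2%) below, beside 22.2% and 10.4% of all genes, 1 was higher and 2 lower at an unadjusted p under 0.05, DESeq2 called 0, and the cell cycle inhibitor Cdkn1a was at 13.5, 0, 7.004, 0 and 3.37 CPM and then 75.9 CPM. Of 14 testable imprinted genes 0 were called, 4 (28.6%) lay above and 0 below, beside the same shares, with 1 higher at an unadjusted p under 0.05 and 1 lower by DESeq2. Snrpn was at 141, 193, 96.5, 138 and 57.5 CPM and then 493 CPM (1.98, adjusted p = 0.184). Of the 25 endoderm markers, 4 had served to choose the E4.5 cells, and of the 19 others that were testable 0 were called, 0 lay above and 4 (21.1%) below, beside the same shares, and 7 were lower at an unadjusted p under 0.05. The choice of E4.5 cells bears on these genes too. Apoe, its most abundant member, was at 2699.7, 2314, 1581, 1217 and 2535 CPM and then 501 CPM (-2.05, adjusted p = 0.0741).

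**Figure D4:**
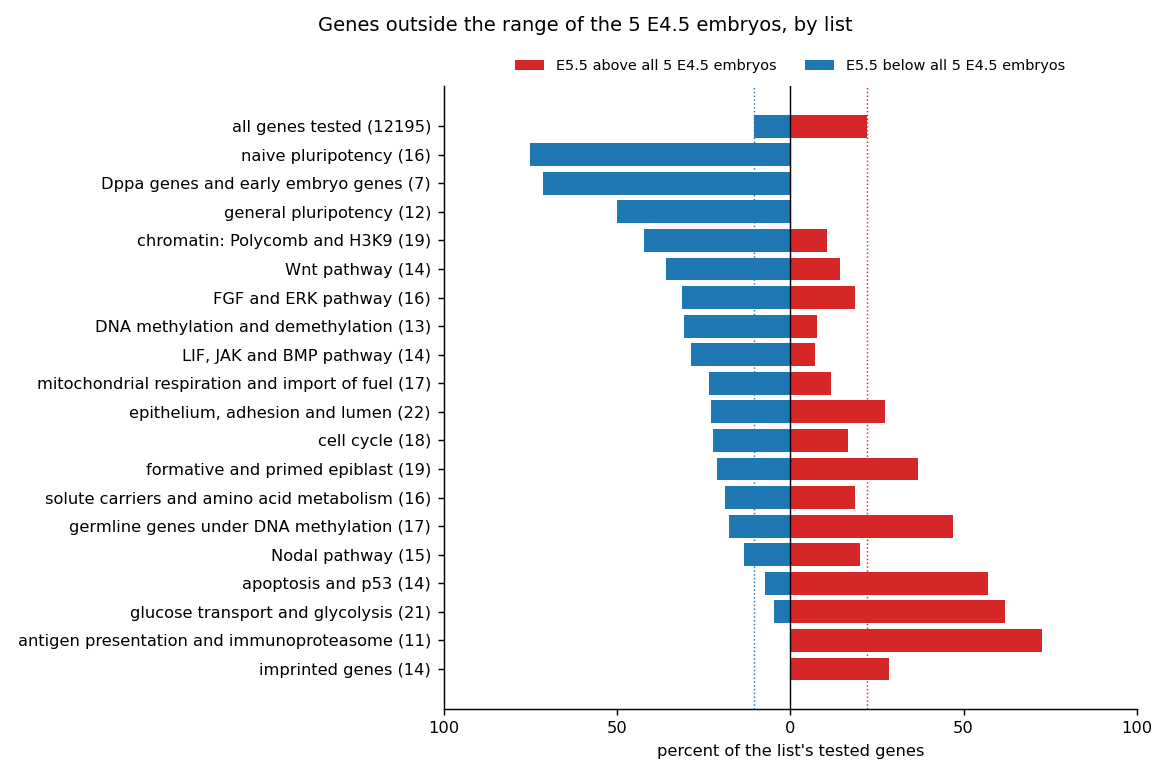
Percentage of the testable genes of each list whose E5.5 value lay above (red, to the right) or below (blue, to the left) all 5 E4.5 embryos, with the percentages over all tested genes, 22.2% and 10.4%, as dotted lines. The antigen presentation and glycolysis lists extend farthest to the right, and the naive and early embryo lists farthest to the left.

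Cells of 1 embryo are not replicates of a stage, so the spread among cells is a description. Over pairs of cells, the median Pearson correlation of log2(CPM + 1) across genes was 0.763 within E4.5 embryos, 0.752 between E4.5 embryos, 0.701 within the E5.5 embryo and 0.683 between the stages, so cells of the same E4.5 embryo were scarcely more alike than cells of different ones. Pou5f1 was even, with an SD of 0.53 over E4.5 cells and 0.37 over E5.5 cells on the log2(CPM + 1) scale. Dnmt3b had SDs of 1.86 and 0.65, the first of which was 0.83 without the lowest cell (0.66, where the next held 6.64), whereas Dnmt3l went from 0.90 to 2.95 and was read in 29 of 37 cells at E5.5. Psmb8 was the most uneven of the genes that rose, with an SD of 3.45 at E5.5, where 26 cells held reads and 11 held none. Klf2 and Psmb8 were read together in 2 of 37 E5.5 cells.

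**Figure D5:**
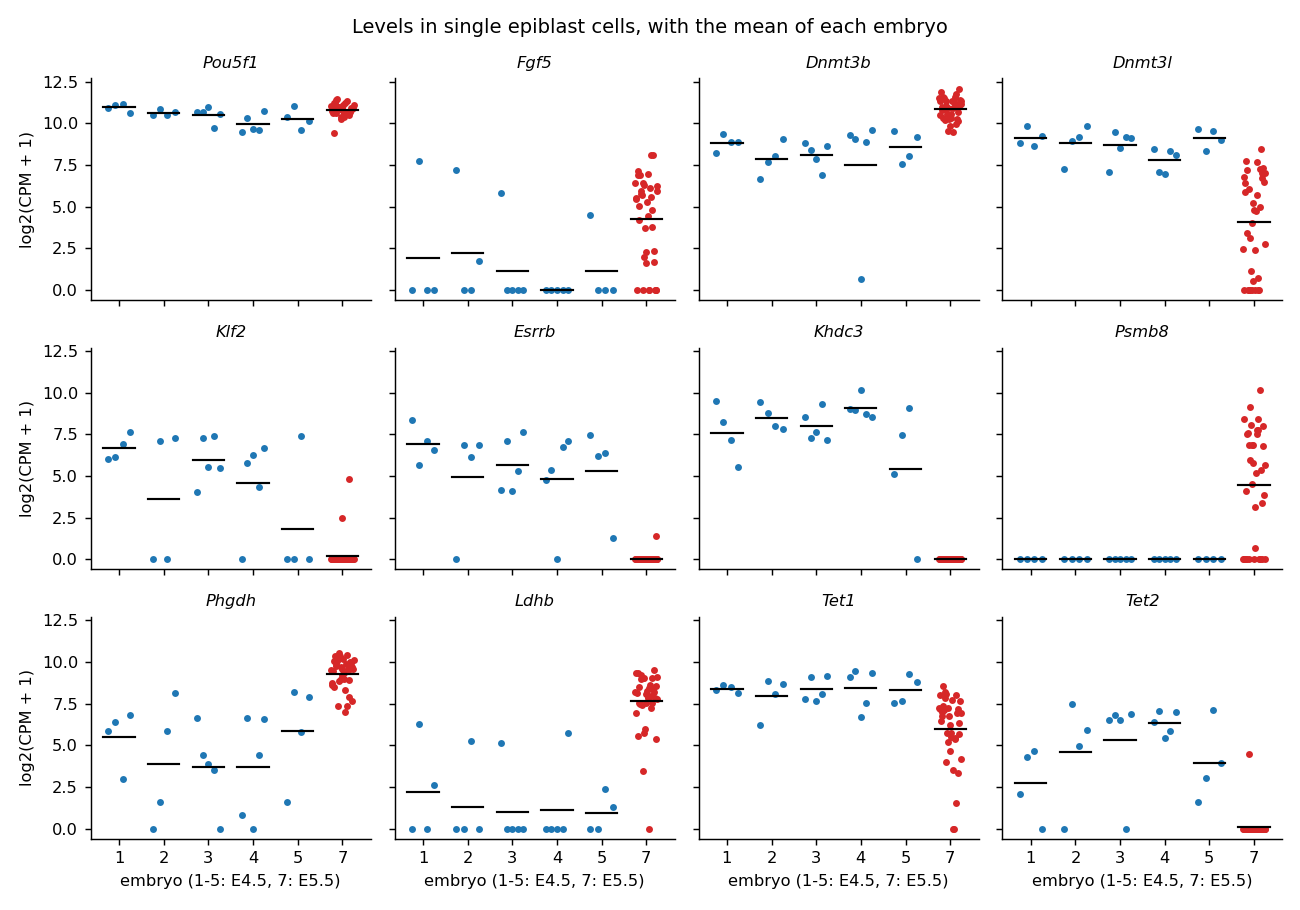
Levels of 12 genes in single epiblast cells as log2(CPM + 1), 22 cells of E4.5 embryos 1 to 5 and 37 cells of the E5.5 embryo, with a line at the mean of each embryo. Pou5f1 stays level, Klf2, Esrrb and Khdc3 are at or near 0 in the E5.5 cells, and Psmb8 is split into 26 cells with reads and 11 without.

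The counting does not state the use of strand, so genes that share exonic sequence with another gene are uncertain. Of the 47 called genes, GENCODE annotates such an overlap for 13, with a protein-coding gene for Ncoa3 (Sulf2), Sept1 (Zfp553), Dnmt3l (Aire), Khdc3 (Gm20509) and Pfkp (Pitrm1), and with a non-coding gene for the rest.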

How the data were processed

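The authors deposited reads counted on 22084 genes in 264 single cells as raw counts, without normalization. According to the submitters' processing notes the tools included Trim Galore (0.4.2 and 0.4.5), HISAT2 (2.1.0) and featureCounts with the build GRCm38, and the annotation release and the strand setting are not given in the sources used here. The study's methods give single-end reads of 50 bases for libraries made from purified RNA, and for the embryo cells they refer to earlier work. No molecular identifiers were used, so counting intervals and floors cover counting error only. Symbols were matched for 21907 identifiers.

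Groups and embryos were taken from the labels. The members, the gene lists and the cell rule were chosen with earlier results of these data known. Counts were summed over the epiblast cells of each embryo, which gave 1847759 to 5622270 reads at E4.5 and 47404055 at E5.5, and tested with edgeR 4.0.16 (R 4.3.3, TMM, filterByExpr by stage, quasi-likelihood, Benjamini-Hochberg, threshold 0.05). Nothing in the labels says more of how embryos were obtained, so p-values measure the spread between these embryos. Levels are CPM on the TMM library size, and log2(CPM + 1) was used for cells. A gene without reads in a stage was given a floor of 3 reads over that stage (0.166 CPM at E4.5 and 0.0620 at E5.5). No pair of cells had identical counts, and doublets were not called. edgeR and DESeq2 were tested on simulated counts with the same numbers of embryos and reads. These were drawn with the dispersions fitted by edgeR and the mean of each gene over all embryos. There edgeR recovered most of the large rises, fewer of the large falls and few of the small changes in either direction, and its share of false calls was above the nominal threshold. In these simulated counts most DESeq2 calls were false, nearly all of them in genes called lower. The setting follows edgeR's fit, so it cannot say how many DESeq2 calls on the real counts are false. DESeq2 counts are given as an alternative and support no call. limma was not tested in this way.

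Named were the genes of the cell rule and the 4 markers, the 10 largest rises and falls among called genes that averaged 10 CPM or more over the embryos of 1 stage and had an E5.5 value outside the E4.5 range and reads in at least 50% of the cells of the higher stage, and up to 6 members of each list. Other names were added after the values were seen, and 2 members of the lists are not reported here by name. Alternatives were other normalization, filters, cell rules, thinned cells, DESeq2 1.42.0, limma 3.58.1, the embryos of 1 prefix and each embryo left out. Tables and figures were made with Python 3.11.15, pandas 2.3.3, scipy 1.17.1 and matplotlib 3.10.9. Coordinates are those of GENCODE genes on GRCm38.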

Additional observations from a re-analysis of the deposited data

Results flagged for a closer look

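In 10 of 100 genes whose 5 E4.5 embryos were checked, 1 embryo stood apart from the others by Dixon's criterion at 95%, where chance alone flags about 1 in 20, or 5 of these. Among the called genes, Fbxo15 was low in embryo 1 at 18.7 CPM, as was Manba at 145 CPM, Hspb1 was low in embryo 4 at 263 CPM, and H2-M5 and Trh were low in embryo 5 at 31.6 and 48.7 CPM. Slc38a1 was read in embryo 3 alone, at 0.226 CPM. Among genes that were not called, Tet2 and Jarid2 were low in embryo 1 at 13.01 and 228 CPM, Dnmt1 was high in embryo 4 at 189.5 CPM, and Fgf8 was read in embryo 3 alone, at 0.678 CPM.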

How the results depend on the processing

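The count of 5 higher and 42 lower genes rests on 5 E4.5 embryos of 4 or 5 cells each, from which the spread of the single E5.5 embryo was borrowed. For genes higher at E5.5, no filter on low counts gave 10, a filter of 10 CPM gave 3, DESeq2 17, limma 590 and 683 with a pseudocount of 5, thinned cells 31, an E4.5 difference of at least 2 gave 3 and of at least 5 gave 2, E5.5 cells with at least 2000 genes 11, the P1 embryos 26 and the P2 embryos 0. For genes lower at E5.5, DESeq2 gave 305, limma 99 and 89 with a pseudocount of 5, thinned cells 89, the P1 embryos 66, the P2 embryos 3 and an E4.5 difference of at least 5 gave 23. The causes were not tested. Leaving out each E4.5 embryo in turn gave 2 to 16 higher and 22 to 58 lower genes, the lowest without embryo 2 and the highest without embryo 5. In thinned cells, where 5831 genes were tested, 16 genes described above as not past the threshold passed it in the same direction, Eno1, Ldha, Tpi1, Slc16a3, Psme2, Psmb10 and Snrpn higher and Nanog, Tfcp2l1, Tet2, Spry2, Bmp4, Ooep, Jarid2, Zfp57 and Apoe lower. On all reads, without embryo 5 Nanog, Tfcp2l1, Eno1, Psme2, Zfp57 and Apoe passed, without embryo 4 Egr1 and Apoe, and without embryo 1 Tet2. With no filter on low counts Nanog, Tet2, Eno1, Psme2, Zfp57 and Apoe passed, and with the P1 embryos Tfcp2l1, Eno1, Tpi1, Psme2, Zfp57 and Apoe. With E5.5 cells of at least 2000 genes Nanog and Psme2 passed, and in both limma fits Nanog, Sox2, Tet1, Ooep and Zfp57. The size factors of DESeq2 in the edgeR fit gave 5 and 43, and a stricter depth minimum kept the same cells. None of the genes with a fold change in the text reversed in any of these fits, which all used the same E5.5 embryo. Transcripts with few reads at E4.5, where a sum holds as few as 1847759 reads, are seen less surely than at E5.5. No paired analysis was possible because the only E5.5 embryo carries a number (7) that no E4.5 embryo has.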
